A study of Mus musculus with 23 samples.

Results

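The comparison described here sets all 11 hippocampal RNA-seq libraries from P301S mice against all 12 from WT mice, with the oxygen condition taken out as a second term of an additive model, so that it measures the genotype difference averaged over both conditions. Libraries were placed by their genotype and condition labels, and all 23 libraries of the series entered. The P301S libraries comprised 5 from mice in normoxia and 6 from mice in hypoxia, which the series title names as chronic intermittent hypoxia. The WT libraries comprised 6 in normoxia and 6 in hypoxia. P301S denotes a mutation of the tau protein, and all mice of both genotypes were on a mixed C57Bl6 and Balbc background. The labels give neither the transgenic line, the promoter that drives the transgene, the age and sex of the mice nor the regimen of hypoxia. Nothing in them ties a library to an animal of its own, and the p-values therefore rest on the spread between libraries, which may be technical in part.

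Tau is a microtubule-associated protein of axons. In tauopathies it becomes phosphorylated, leaves the microtubule and aggregates in neurons, and P301S is among the mutations of human tau found in inherited frontotemporal dementia. Mice that carry it develop tangles in hippocampal and other neurons, and synaptic transcripts, protein quality control, mitochondria and glial activation are the processes most often followed in them. The gene lists below cover these processes and the cell types of the hippocampus and its surroundings.

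A library held 23.1 to 25.8 M counts in P301S and 19.1 to 25.8 M in WT. After a filter on low counts, 17788 of 52636 annotated genes could be tested. Levels are given as counts scaled to library size (CPM), fold changes are log2 values of P301S over WT with their standard error (SE), and a gene is said to have risen or fallen where the adjusted p over all tested genes was below 0.05. Of markers of hippocampal neurons, all 16 of dentate granule cells, all 14 of CA1 and all 16 of CA2 and CA3 were expressed enough to be tested. All 17 markers of neocortex and subiculum and 12 of 14 of thalamus and habenula were too. Passing the filter therefore does not check the tissue label. Some libraries stood apart. WT hypoxia replicate 1 held transcripts of cerebellar granule cells, with 246 CPM of Cbln3, 145 CPM of Gabra6 and 204 CPM of Fat2, against at most 1.22, 0.438 and 2.83 CPM in the other 22 libraries (Fat2 was chosen after its values were seen). Choroid plexus, which borders the hippocampus, entered the libraries to varying degrees, and its marker Ttr ran from 30.1 to 2711 CPM in P301S and from 58.9 to 3176 CPM in WT. The 6 libraries with the lowest choroid plexus score were 2 of P301S and 4 of WT. A number in the titles, of unexplained meaning, was shared by libraries only within WT (66 by 5 normoxia, 31 by 4 and 32 by 2 hypoxia libraries), so whatever it stands for cannot be told apart from genotype.

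The genotype labels were checked at the endogenous tau gene and at the prion locus, whose promoter drives several tau transgenes in use. Mapt, the mouse tau gene, had 694 ± 48.9 CPM in P301S (SD, n = 11) and 688 ± 33.9 CPM in WT (SD, n = 12), a log2 fold change of 0.01 (SE 0.0384, adjusted p = 0.856). Whether reads of a transgene are counted at Mapt is not known, so this value does not test the transgene. Prnp, the prion protein gene, could not be tested, since 99.9% of its gene body lies under the overlapping gene Prn. Lamr1-ps1, a pseudogene beside the prion locus, ran from 1.5 to 3.86 CPM in P301S (median 2.91) and had 0 counts in every WT library, which makes it at least 282-fold higher, taking 3 counts in all 12 WT libraries together as the floor. Prn ran from 2.56 to 5.79 CPM in P301S and from 0.0413 to 0.4 CPM in WT, a log2 fold change of 3.79 (SE 0.175, adjusted p = 6.36e-14). Each P301S library thus lay above each WT library for both RNAs. The same held for 3 neighbouring non-coding RNAs on chromosome 3 (GRCm38), Gm43049, Gm32754 and 4930590L14Rik, chosen after their values were seen, which had 772, 2338 and 425 counts over the P301S libraries and 4, 15 and 1 over the WT libraries, while the neighbouring genes Stpg2, Unc5c, Bmpr1b and Pdlim5 were not called and Gm15688, beside Unc5c, fell by 0.37 (SE 0.104, adjusted p = 0.0225).

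Over both conditions, 29 of 32 cytosolic ribosomal protein genes, 16 of 20 complex I genes, 12 of 15 ATP synthase genes and 15 of 28 proteasome genes fell in P301S relative to WT, and 15 of 36 neuronal adhesion genes and 11 of 26 potassium channel genes rose. Once a trend with gene length and GC content was subtracted, 19, 10, 11 and 13 genes of the falling lists fell. Of the rising lists, 2 adhesion genes and 1 potassium channel gene then rose, and 1 adhesion gene fell. Of 17788 genes, 2175 (12.2%) passed the test, of which 880 (4.95% of the tested genes) rose and 1295 (7.28%) fell. The differences were small: the median absolute log2 fold change of the called genes was 0.19, 1526 of them (70.2%) were below 0.25 and 15 were above 1. The median over all tested genes was 0.0077, and 47.9% of them had a negative sign. The balance of directions depended on the handling of gene length. As fitted, 40.5% of the calls were higher and 59.5% lower in P301S, and once the dependence of each library on gene length and GC content had been subtracted 1000 genes were called, 196 higher (19.6% of the calls and 1.1% of the tested genes) and 804 lower (80.4% and 4.52%). Of the 1000, 783 were called as fitted too, all with the same sign. Without WT hypoxia replicate 1 the count was 2283, and without the 6 choroid-poor libraries 1482, of which 561 (3.15%) were higher and 921 (5.18%) lower.

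The genotype difference was estimated separately in normoxia and in hypoxia, on libraries that the other condition does not use. All 2175 genes called over both conditions had the same sign in the 2 separate fits, which the choice of genes largely fixes, and 63.0% of all tested genes did. Alone, normoxia called 360 genes (2.02%; 0.944% higher and 1.08% lower) and hypoxia 150 (0.843%; 0.202% higher and 0.641% lower), with 44 in common, which is 12.2% of the normoxia calls and 29.3% of the hypoxia calls. Of 192 genes that fell in normoxia 178 were also negative in hypoxia, with medians of -0.33 and -0.21, and of 114 that fell in hypoxia all 114 were negative in normoxia, with medians of -0.34 in hypoxia and -0.29 in normoxia. Of 168 genes that rose in normoxia, 128 were positive in hypoxia, with medians of 0.44 in normoxia and 0.0979 in hypoxia, and of 36 that rose in hypoxia 29 were positive in normoxia. Whether these shares differ was not tested. Across all tested genes, which are not independent replicates, the fold changes of the conditions correlated with Pearson's r of 0.292 and Spearman's rho of 0.266. The counts of the separate fits rested on single libraries: leaving out one at a time gave 9 calls (without WT normoxia replicate 2) to 1231 (without WT normoxia replicate 1) in normoxia, and 11 (without P301S hypoxia replicate 3) to 537 (without P301S hypoxia replicate 6) in hypoxia, whereas the count over both conditions ran from 1543 to 2582. Without WT hypoxia replicate 1, hypoxia called 76.

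**Figure D1:**
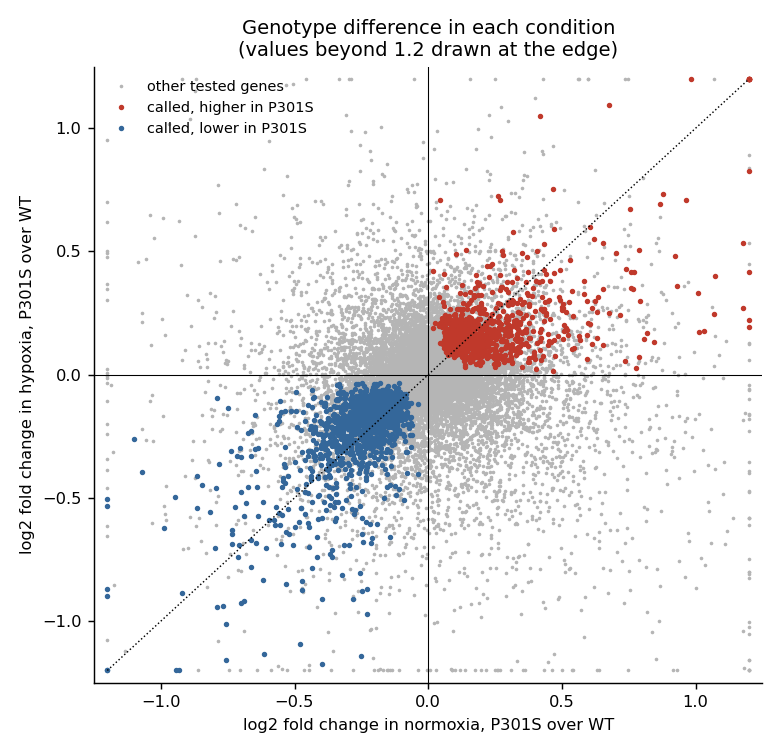
Log2 fold change of P301S over WT in normoxia (x axis) and in hypoxia (y axis) for every tested gene, estimated from separate libraries, with values beyond the axes drawn at the edge and the dotted line marking equality. The 880 called higher genes lie in the upper right quadrant and the 1295 called lower genes in the lower left, a placement largely fixed by the choice of genes, while the other genes fill all quadrants.

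For 36 genes (0.202% of those tested) the 11 P301S and 12 WT libraries did not overlap, with P301S above WT for 10 (0.0562%) and below WT for 26 (0.146%). Beside the RNAs of the prion locus and chromosome 3, the genes above were Kctd16, Acer3, Pstpip2 and the predicted genes Gm34471 and Gm37359. Kctd16 (ENSMUSG00000051401, chromosome 18, 40258361 to 40531168), which encodes an auxiliary subunit of the GABA-B receptor, had a lowest, median and highest level of 27.0, 31.6 and 47.2 CPM in P301S and of 18.5, 22.7 and 26.3 CPM in WT. Its log2 fold change was 0.54 (SE 0.0801, adjusted p = 0.00024), with 0.79 in normoxia and 0.30 in hypoxia. Acer3, an alkaline ceramidase, had 35.3 ± 2.67 CPM in P301S (n = 11) and 28.6 ± 2.21 CPM in WT (SD, n = 12), with a log2 fold change of 0.30 in each condition. Pstpip2, an adaptor of the actin cytoskeleton studied in macrophages, had 17.3 ± 1.52 CPM in P301S (n = 11) and 13.5 ± 0.763 CPM in WT (SD, n = 12). Acer3 and Pstpip2 were chosen after their values were seen.

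Among the 26 genes with all P301S libraries below all WT libraries were Gabarap, Mapk3, Cox5b, Psmd8, Rpl12 and Rpl19-ps11 of the genes named by rule. Gabarap (ENSMUSG00000018567, chromosome 11, 69991143 to 69994951), whose protein joins autophagosome membranes to their cargo and separately binds GABA-A receptors, ran from 75.5 to 86.0 CPM in P301S (median 81.6) and from 88.5 to 109 CPM in WT (median 98.2), and fell by 0.27 on the log2 scale (SE 0.0336, adjusted p = 3.24e-05). Mapk3 (ENSMUSG00000063065, chromosome 7, 126759601 to 126765819), the kinase ERK1, ran from 99.9 to 127 CPM in P301S (median 118) and from 131 to 157 CPM in WT (median 147), and fell by 0.31 (SE 0.0383, adjusted p = 3.24e-05). These genes lost 17.2% and 19.3% of their WT level. Akr1a1, an aldehyde reductase, fell by 0.30 (SE 0.037, adjusted p = 3.24e-05), with 160 to 200 CPM in P301S and 188 to 236 CPM in WT, so that the groups overlapped at the edge. Further genes of this set, chosen after their values were seen, included 3 subunits of the Mediator complex that links transcription factors to RNA polymerase II: Med22 fell by 0.32, Med11 by 0.38 and Med28 by 0.17 (adjusted p = 9.47e-05, 0.000471 and 0.00066). Eef1b2, a translation elongation factor subunit, fell by 0.22 (adjusted p = 0.000156), Iscu, a scaffold for iron-sulfur cluster assembly, by 0.22 (adjusted p = 0.000625), and Rab8a, a GTPase of vesicle traffic, by 0.18 (adjusted p = 0.0018).

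**Figure D2:**
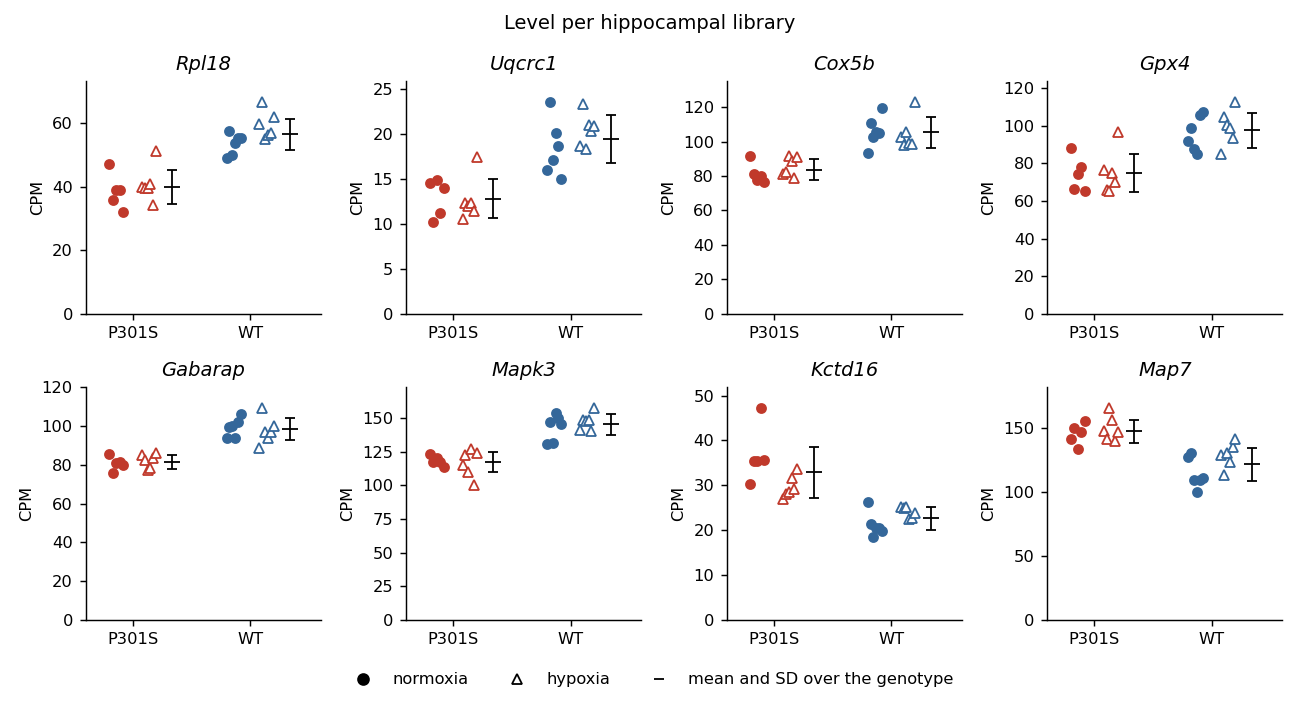
Level in CPM of 8 named genes in each library, P301S left of WT, with circles for normoxia, triangles for hypoxia, and the mean and SD over each genotype in black. Gabarap, Mapk3 and Cox5b lie lower in every P301S library than in any WT library, Kctd16 lies higher, and Rpl18, Uqcrc1, Gpx4 and Map7 shift with overlap.

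Cytosolic ribosomal protein genes fell together. Of 32 tested, 29 fell and none rose, against 7.28% of all tested genes that fell, and their median log2 fold change was -0.24. Their medians were -0.26 in normoxia and -0.24 in hypoxia, with 31 and 32 of the 32 below 0. Rpl18, a protein of the large subunit (ENSMUSG00000059070, chromosome 7, 45715457 to 45720836), had 32.2, 39.6 and 51.3 CPM as its lowest, median and highest level in P301S and 49.1, 56.0 and 66.7 CPM in WT, and fell by 0.51 (SE 0.0598, adjusted p = 1.95e-05), the lowest p of any gene with a full name outside the prion and chromosome 3 loci. One P301S library reached into the WT range. Rps14, of the small subunit, ran from 62.0 to 88.6 CPM in P301S (median 68.7) and from 76.7 to 121 CPM in WT (median 96.2), and fell by 0.45 (SE 0.0574, adjusted p = 4.18e-05). Rpl12, at the stalk of the large subunit, ran from 57.5 to 72.9 CPM in P301S and from 73.6 to 89.4 CPM in WT. Rpl7a and Rpl32 fell by 0.29 and 0.34 (adjusted p = 0.000109 and 0.000143). Without WT hypoxia replicate 1, 29 fell, without the choroid-poor libraries 27 fell, and with the length and GC trend removed 19 fell. Genes of this list are short, with a median gene body of 3.91 kb, and have near-identical pseudogene copies that can take part of their reads. Sphk2 covers 47.3% of the gene body of Rpl18, and reads there were assigned to neither gene.

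Many ribosomal protein genes begin transcription at a terminal oligopyrimidine tract, a C followed by a run of C and T that links their translation to growth signals. The tract and a second element were looked for in RefSeq promoters (GRCm38.p6), 250 bases before to 50 after the start, because the genes below moved together. A C followed by at least 6 letters that are each C or T, beginning between 10 bases before and 20 after the start on the gene's strand, stood in 12 of the 24 cytosolic ribosomal protein genes with a promoter in the table (50%) and in 15.1% of all 27025 promoters. The letters CCGGAAG or CTTCCGG, the core of ETS factor sites read on both strands, stood anywhere in the 300 bases in 9 of the 24 (37.5%), in 8 of 19 mitochondrial ribosomal protein genes (42.1%), in 6 of 14 genes of complexes II to IV (42.9%), in 4 of 13 ATP synthase genes (30.8%), in 7 of 23 proteasome genes (30.4%) and in 9.12% of all promoters (15.3% of those of tested genes). They stood in 2 of 16 complex I genes (12.5%) and 1 of 27 adhesion genes (3.7%). In no ribosomal, mitochondrial or proteasome gene did the elements overlap. A match describes the letters and not a bound site. The first pair below shows the run in capitals around the start of Rpl18 (chr7:45718056-45718095, plus strand) and of Rack1 (chr11:48800345-48800384, plus strand), a ribosomal scaffold protein, each from 15 bases before the start. The second pair shows the ETS letters in capitals in Uqcrh (chr4:116075057-116075096, minus strand) and Cox6b1 (chr7:30626119-30626158, minus strand), both of the respiratory chain.
Rpl18: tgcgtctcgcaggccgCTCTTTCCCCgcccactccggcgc
Rack1: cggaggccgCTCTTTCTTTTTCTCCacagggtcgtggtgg
Uqcrh: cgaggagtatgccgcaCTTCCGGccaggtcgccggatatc
Cox6b1: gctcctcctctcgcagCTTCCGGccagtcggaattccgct

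Pseudogene copies of these genes moved the same way. Of 723 processed pseudogenes tested, 147 (20.3%) fell and 4 rose, with a median of -0.20, against 7.28% of all tested genes that fell. The 1779 tested genes with the shortest gene bodies (up to 2.92 kb) were close to this, with 335 that fell, 13 that rose and a median of -0.15. Of 45 named as ribosomal protein pseudogenes 24 fell and none rose, with a median of -0.46. Rpl19-ps11 ran from 4.49 to 6.46 CPM in P301S and from 6.77 to 8.84 CPM in WT, without overlap, and fell by 0.58 (SE 0.0733, adjusted p = 4.18e-05). Copies made up most of the genes that fell by the largest amount: Rps15a-ps7 fell by 0.88, Rps18-ps3 by 0.86, Dynlt1-ps1 by 0.71, Rps25-ps1 by 0.71, Rpl9-ps7 by 0.70, Rpsa-ps12 by 0.66, Tsg101-ps by 0.63 and Rpl9-ps4 by 0.62, each at a mean of a few CPM or less. Reads of a copy and of its parent gene can be exchanged, so the values of these pseudogenes are uncertain as measures of transcription at their own sites. Rps18-ps3, Dynlt1-ps1 and Rpsa-ps12 were not called with the length and GC trend removed (adjusted p = 0.154, 0.11 and 0.0574), and Rps18-ps3 lost its call in 12 of the fits that left out a library.

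Mitochondrial genes encoded in the nucleus fell as well. Of 20 complex I genes 16 fell, of 20 genes of complexes II to IV 15 fell, of 15 ATP synthase genes 12 fell and of 22 mitochondrial ribosomal protein genes 13 fell, and none of these lists held a gene that rose. Of all tested genes 7.28% fell and 4.95% rose. Their median log2 fold changes were -0.20, -0.20, -0.19 and -0.16. Uqcrc1, a core subunit of complex III (ENSMUSG00000025651, chromosome 9, 108936633 to 108949623), had 10.3, 12.3 and 17.5 CPM as its lowest, median and highest level in P301S and 15, 19.4 and 23.6 CPM in WT, and fell by 0.60 (SE 0.0878, adjusted p = 0.000198). Cox5b, a subunit of complex IV, ran from 76.5 to 91.8 CPM in P301S and from 93.4 to 123 CPM in WT, and fell by 0.33 (SE 0.0458, adjusted p = 0.000109). For Cox5b no library of one genotype entered the range of the other. Ndufb9 of complex I fell by 0.31 (adjusted p = 8.67e-05), Uqcrh of complex III by 0.23 (adjusted p = 0.000307), Cox6b1 of complex IV by 0.25 (adjusted p = 0.000262) and Mrpl28 of the mitochondrial ribosome by 0.29 (adjusted p = 0.000781). Atp5b, the catalytic beta subunit of ATP synthase, ran from 675 to 854 CPM in P301S and from 759 to 922 CPM in WT and fell by 0.23 (SE 0.034, adjusted p = 0.000245), and Atp5k, a small membrane subunit, fell by 0.29 (adjusted p = 0.000185). With the length and GC trend removed, 10, 13, 11 and 6 genes of the 4 lists fell. Without the choroid-poor libraries 13, 14, 13 and 9 fell, and without WT hypoxia replicate 1 16, 16, 15 and 14.

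The genes encoded in mitochondrial DNA did not share that direction. Of 13, 2 rose and 1 fell, against 4.95% and 7.28% of all tested genes, and their median was 0.10. mt-Nd1, of complex I, had 2763 ± 279 CPM in P301S (SD, n = 11) and 2457 ± 123 CPM in WT (SD, n = 12), a log2 fold change of 0.16 (SE 0.0417, adjusted p = 0.0128). mt-Nd4 rose by 0.14 (SE 0.0441, adjusted p = 0.0329), and mt-Co2, of complex IV, fell by 0.25 (SE 0.0541, adjusted p = 0.00371), with 119 ± 8.09 CPM in P301S and 142 ± 16.7 CPM in WT. Both rises were lost without the choroid-poor libraries (adjusted p = 0.0802 and 0.129), and that of mt-Nd4 also in 8 of the fits that left out a library. The fall of mt-Co2 was called without the choroid-poor libraries too (adjusted p = 0.029).

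**Figure D3:**
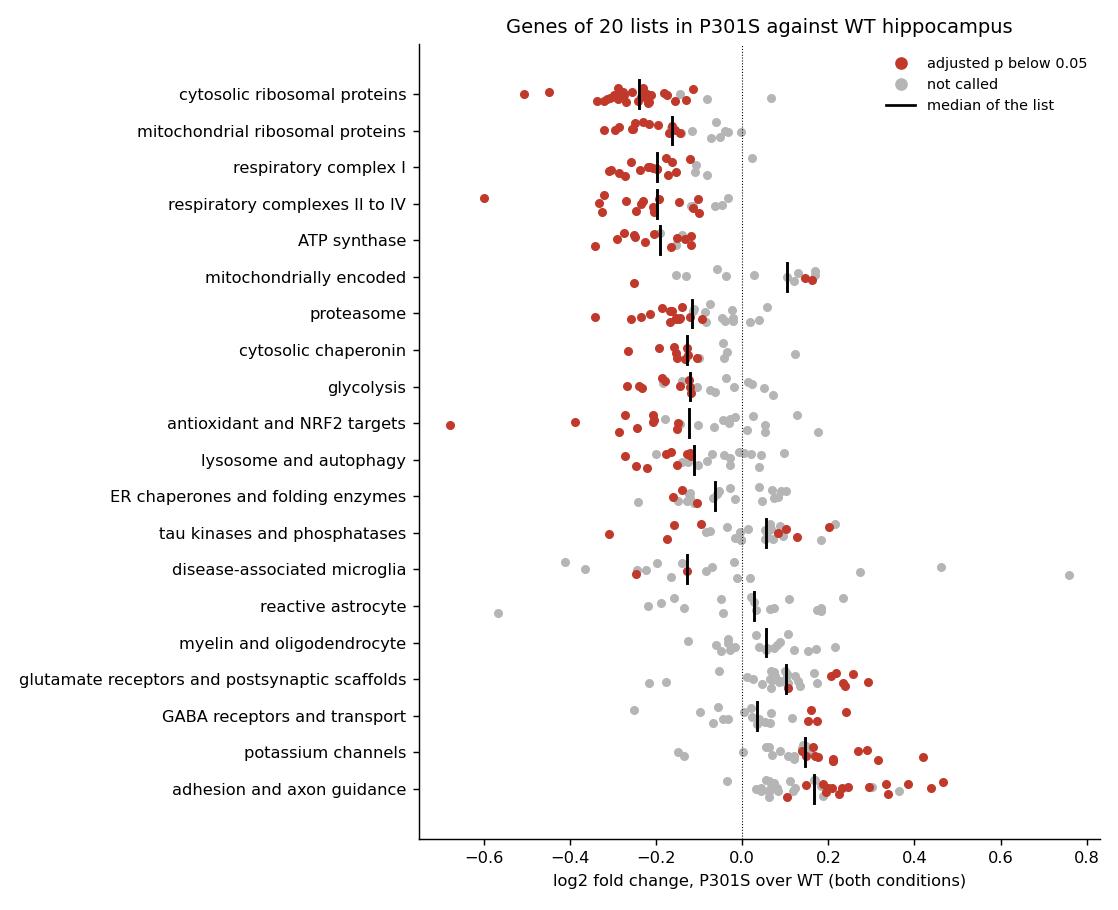
Log2 fold change of P301S over WT (x axis) for each tested gene of the named lists (rows), red where the adjusted p was below 0.05 and grey otherwise, with the median of each list as a black bar. Ribosomal, respiratory chain and ATP synthase genes lie almost wholly left of 0, mitochondrially encoded genes on both sides, and adhesion and potassium channel genes almost wholly right of 0.

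Part of the genes of protein folding and breakdown in the cytosol fell. Of 28 proteasome genes 15 fell and none rose (median -0.12), against 7.28% of all tested genes that fell and 4.95% that rose. Psmd8, a lid subunit of the regulatory particle, ran from 60.2 to 69.5 CPM in P301S and from 69.6 to 78.9 CPM in WT, and fell by 0.19 (SE 0.0293, adjusted p = 0.000346). Its groups touched without overlapping. Psmb4, of the core particle, fell by 0.26 (adjusted p = 0.000678) and Psmc5, an ATPase of the base, by 0.17 (adjusted p = 0.001). Of 14 genes of the chaperonin and prefoldin, which fold actin and tubulin, 9 fell and none rose (median -0.13), Pfdn5 by 0.27 (adjusted p = 0.00104) and Cct2 by 0.13 (adjusted p = 0.00377). Of 30 heat shock proteins and co-chaperones 6 fell and 1 rose. Those that fell included Fkbp4, Stip1 and Cdc37, co-chaperones of HSP90, by 0.20, 0.16 and 0.17 (adjusted p = 0.00689, 0.00709 and 0.00741), and Hspa4l, an HSP110 family member, rose by 0.18 (adjusted p = 0.0225). With the length and GC trend removed 13 proteasome, 7 chaperonin and 2 heat shock genes fell and no gene of the lists rose. Without WT hypoxia replicate 1 the numbers that fell were 16, 9 and 6, and without the choroid-poor libraries 12, 6 and 5.

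Chaperones of the endoplasmic reticulum (ER) had genotype differences of opposite sign in the conditions, though no member passed the adjusted interaction test. Over both, 3 of 22 fell and none rose (median -0.0642), with P4hb, a disulfide isomerase, falling by 0.14 (SE 0.0318, adjusted p = 0.00578). Of all tested genes 7.28% fell and 4.95% rose. In normoxia 18 of the 22 were below 0 with a median of -0.15, and in hypoxia 17 of 22 were above 0 with a median of 0.12. The interaction of genotype and hypoxia had an unadjusted p below 0.05 in 13 of the 22, against 1650 (9.28%) of all tested genes. The ER chaperone Hspa5, chosen after its values were seen, had 213 ± 27.2 CPM in P301S normoxia (SD, n = 5) and 290 ± 40.4 CPM in WT normoxia (SD, n = 6), but 288 ± 51.6 CPM in P301S hypoxia and 223 ± 13 CPM in WT hypoxia (SD, n = 6 each). Its additive log2 fold change was -0.0167 (SE 0.115, adjusted p = 0.947). Of 22 factors of the unfolded protein response, 2 rose and 5 fell. The transcription factor Atf4 fell by 0.28 (adjusted p = 0.00918) and Herpud1, a factor of ER-associated degradation, by 0.21 (adjusted p = 0.0111), while Mbtps2, a protease that activates membrane-bound transcription factors, rose by 0.20 (adjusted p = 0.00108), and Ern1, the stress sensor IRE1, by 0.17 (adjusted p = 0.0217). Of these 22 genes 1 fell and none rose with the length and GC trend removed, and 1 fell and 2 rose without the choroid-poor libraries, where 1 of the 22 ER chaperones fell. For the interaction as such, 0 genes passed edgeR's adjusted threshold and DESeq2 called 52.

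Glycolytic, lysosomal and antioxidant genes fell in part. Of 20 genes of glycolysis 9 fell and none rose (median -0.12), against 7.28% of all tested genes that fell and 4.95% that rose. Tpi1, triose phosphate isomerase, fell by 0.24 (SE 0.0415, adjusted p = 0.000711), with 327, 352 and 429 CPM as its lowest, median and highest level in P301S and 365, 430 and 454 CPM in WT, and Ldha, lactate dehydrogenase, fell by 0.27 (SE 0.0497, adjusted p = 0.00131). Of 24 genes of lysosome and autophagy 9 fell and none rose (median -0.11), among them Gabarap, Sqstm1, the autophagy receptor p62, by 0.18 (adjusted p = 0.00237) and Hexa, a lysosomal hexosaminidase, by 0.15 (adjusted p = 0.00545). Of 24 antioxidant genes and NRF2 targets 10 fell and none rose (median -0.12). Gpx4, which reduces lipid peroxides, ran from 65.2 to 96.9 CPM in P301S (median 74.5) and from 84.8 to 113 CPM in WT (median 98.9), and fell by 0.39 (SE 0.0658, adjusted p = 0.000634). The peroxiredoxins Prdx5 and Prdx2 fell by 0.29 and 0.24 (adjusted p = 0.000262 and 0.00153). With the length and GC trend removed, 7, 6 and 7 genes of the 3 lists fell, without WT hypoxia replicate 1 10, 10 and 11, and without the choroid-poor libraries 7, 11 and 9.

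Tau kinases, phosphatases and microtubule-associated proteins showed no common direction, while tubulins lay mostly on the lower side. Of all tested genes 4.95% rose and 7.28% fell. Of 30 tau kinases and phosphatases 4 rose and 4 fell (median 0.0549). Beside Mapk3, the neuronal kinase Cdk5 fell by 0.17 (SE 0.0422, adjusted p = 0.00882) and the phosphatase Ppp5c by 0.16 (adjusted p = 0.0081). Gsk3b, a main tau kinase, rose by 0.13 (SE 0.0321, adjusted p = 0.0107), with medians of 233 CPM in P301S and 206 CPM in WT, and was not called with the length and GC trend removed (adjusted p = 0.578), nor was Cdk5 (adjusted p = 0.114). Of 27 microtubule-associated proteins 2 rose and 2 fell, close to the shares of all tested genes. Map7, a kinesin-1 cofactor, ran from 134 to 166 CPM in P301S (median 147) and from 100 to 141 CPM in WT (median 126) and rose by 0.28 (SE 0.0467, adjusted p = 0.000617). Stmn3, a stathmin that binds tubulin, fell by 0.28 (adjusted p = 0.000307), and Kif5a, a kinesin-1 heavy chain, by 0.26 (adjusted p = 0.00561). Of 14 tubulins 5 fell and none rose, Tuba1a by 0.23 (adjusted p = 0.00119), and with the length and GC trend removed 1 fell.

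Among lists of neuronal surface proteins, the calls were rises. Of 36 adhesion and axon guidance genes 15 rose and none fell, against 4.95% of all tested genes that rose, and 35 had a positive sign (median 0.17). Nlgn1, a postsynaptic neuroligin, ran from 128 to 165 CPM in P301S (median 157) and from 103 to 142 CPM in WT (median 124), and rose by 0.30 (SE 0.0521, adjusted p = 0.00079). The netrin receptor Dcc rose by 0.34 (adjusted p = 0.00163), and the IgLON proteins Lsamp and Opcml by 0.22 and 0.44 (adjusted p = 0.00179 and 0.00201). The median of the list was 0.23 in normoxia and 0.11 in hypoxia, and 13 of the 36 had an unadjusted interaction p below 0.05. Of 26 potassium channel genes 11 rose and none fell (median 0.14), among them Kcnb2 by 0.29 and Kcna2 by 0.17 (adjusted p = 0.00294 and 0.0096). Kcnip4, an auxiliary subunit of A-type channels, rose by 0.42 (SE 0.105, adjusted p = 0.0115), with fold changes of 0.79 in normoxia and 0.0738 in hypoxia, a difference that edgeR's interaction test did not call (adjusted p = 0.0906). Of 23 calcium, sodium and HCN channel genes 5 rose, led by Cacna2d3 by 0.21 (adjusted p = 0.00061), of 31 glutamate receptor and scaffold genes 7 rose, and of 19 GABA receptor and transport genes 4 rose, with none of these 3 lists holding a gene that fell. The scaffold gene Dlgap2 rose by 0.26 (adjusted p = 0.000651), the NMDA receptor subunit gene Grin2a by 0.23 (adjusted p = 0.00233) and the scaffold gene Homer2 by 0.29 (adjusted p = 0.00276). Genes of presynaptic vesicles and release did not share this direction: of 27, 1 rose and 1 fell (median 0.0277). Without WT hypoxia replicate 1, 14, 9, 8, 6 and 2 genes of the adhesion, potassium channel, calcium and sodium channel, glutamate and GABA lists rose, and without the choroid-poor libraries 14, 10, 8, 6 and 2.

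The lists of neuronal surface proteins hold long genes, and the fold change rose with gene length over all tested genes. The median gene body was 773 kb in the adhesion list, 235 kb in the potassium channel list, 249 kb in the calcium and sodium channel list and 240 kb in the glutamate list. With the length and GC trend removed, 2 adhesion genes rose and 1 fell, 1 potassium channel gene and 2 glutamate receptor genes rose, and no calcium, sodium or GABA gene rose. In the GABA list 1 gene then fell. Over all genes in 10 bins of length, the bin of shortest genes (up to 2.92 kb) held 13 that rose and 335 that fell, with a median of -0.15, and the bin of longest genes (over 132 kb) held 354 that rose and 7 that fell, with a median of 0.0967. Spearman's rho of fold change and length was 0.405 across 15247 genes with at least 1 CPM on average, a description across genes. The slope of a library's log2 level on log10 gene length, relative to the mean of all libraries, had a lowest, median and highest value of -0.0311, 0.05 and 0.126 in P301S and of -0.101, -0.0632 and 0.0272 in WT. The slopes of the genotypes overlapped. Counts included introns, so that a gene body's length sets how much unspliced RNA it can contribute, and the part of RNA quality and of intron reads in these differences was not tested.

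**Figure D4:**
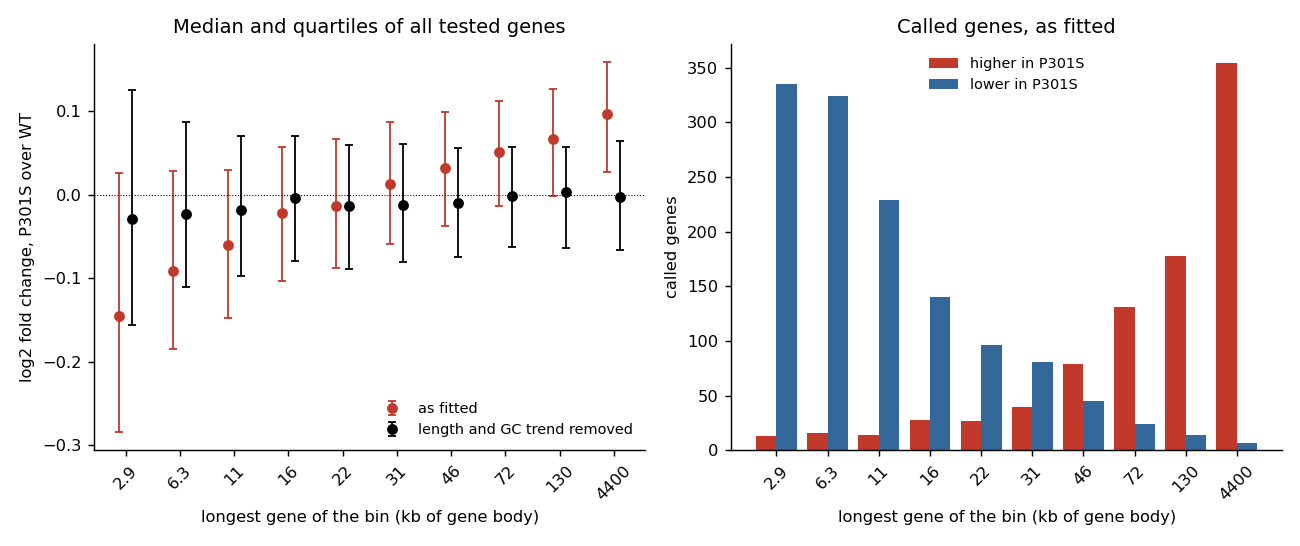
Left, median and quartiles of the log2 fold change of P301S over WT in 10 bins of gene-body length (x axis, longest gene of each bin in kb), as fitted in red and with the length and GC trend removed in black. Right, number of called genes in each bin as fitted, higher in P301S in red and lower in blue, from 13 higher and 335 lower in the shortest bin to 354 higher and 7 lower in the longest.

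Of 20 neuropeptide genes 4 fell and none rose, and 19 had a negative sign (median -0.19), 18 in normoxia and 13 in hypoxia. With the length and GC trend removed 2 fell. Cort, the cortistatin gene of a subset of interneurons, had 1.42, 1.75 and 2.46 CPM as its lowest, median and highest level in P301S and 1.65, 3.39 and 5.23 CPM in WT, and fell by 0.87 (SE 0.153, adjusted p = 0.00079). Npy fell by 0.32 (SE 0.0689, adjusted p = 0.00403) and Sst by 0.31 (SE 0.0753, adjusted p = 0.00923), both peptides of interneurons, and Crh, corticotropin-releasing hormone, by 0.44 (adjusted p = 0.0495), a call lost in 16 of the fits that left out a library. Without WT hypoxia replicate 1, and likewise without the choroid-poor libraries, 5 fell. For Npy the log2 fold change was -0.51 in normoxia (adjusted p = 0.0286) and -0.15 in hypoxia (adjusted p = 0.31). Of 19 interneuron markers 2 rose and 2 fell. Those that rose were Adarb2, which marks interneurons of caudal origin, by 0.30 (SE 0.0493, adjusted p = 0.000479), and Erbb4, a neuregulin receptor, by 0.21 (adjusted p = 0.0269), and those that fell were Npy and Sst. In whole tissue, fewer cells of a type and less RNA per cell cannot be told apart. With the trend removed Sst was not called (adjusted p = 0.181) and Npy was (adjusted p = 0.0443). Among markers of the principal cells, 1 of 16 dentate granule cell genes rose and 1 fell, and 1 of 14 CA1 genes fell. Of 16 CA2 and CA3 genes 2 fell, among them Bok, a BCL2 family member, by 0.43 (adjusted p = 0.00474). As 4.95% of all tested genes rose and 7.28% fell, these counts do not set the markers apart.

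No list of microglial or astrocytic activation held a gene that rose. Of all tested genes 4.95% rose and 7.28% fell, shares at which lists of this size hold few calls. The counts therefore cannot show that activation was absent. Of 11 homeostatic microglia genes none passed the test, of 17 disease-associated microglia genes 2 fell, of 14 complement genes none passed, of 22 genes of MHC class I and the interferon response 2 fell, and of 17 reactive astrocyte and 19 myelin genes none passed. Their medians were 0.0042, -0.13, -0.12, -0.13, 0.0271 and 0.0546. Of the disease-associated microglia genes 5 fell without the choroid-poor libraries, and 5 in the model that holds the choroid score as a term. The microglial genes that fell were the cathepsins Ctsb, by 0.13 (adjusted p = 0.0131), and Ctsd, by 0.25 (adjusted p = 0.0442, lost in 14 of the fits that left out a library), lysosomal proteases that neurons express too. Apoe, the lipid carrier induced in disease-associated microglia, had 919 ± 83.4 CPM in P301S (SD, n = 11) and 1033 ± 138 CPM in WT (SD, n = 12), an adjusted p of 0.108. C1qa, of the first complement component, had 18.0, 23.1 and 44.9 CPM as its lowest, median and highest level in P301S and 26.7, 30.2 and 35.1 CPM in WT (adjusted p = 0.117). The highest value was that of P301S normoxia replicate 1, and without that library C1qa fell by 0.40 (adjusted p = 0.000456). These counts leave out defining members: Gfap, P2ry12, P2ry13, Gpr34, B2m and Timp1 each lie with 100% of their gene body under another annotated gene, so that the counting gave them few or no reads, and none was tested. Of 1110 list entries 66 were not tested, 52 of them overlapped over at least 90% of the gene body. Choroid plexus markers were all on the lower side without passing the test (0 of 15 called, median -0.30), as were ependymal markers (0 of 12 called, median -0.25). Without the choroid-poor libraries these medians were -0.62 and -0.46, with 0 and 2 genes that fell, so that leaving those libraries out widened the difference between the genotypes in these markers. None of 13 mural, 13 meningeal, 17 neocortical and subicular, 12 thalamic and habenular or 6 blood markers passed, and 1 of 15 endothelial markers fell. With the choroid plexus score as a term of the model, 29 of 32 cytosolic ribosomal protein genes, 16 of 20 complex I genes and 15 of 28 proteasome genes fell and 15 of 36 adhesion genes rose, as many as without it. The part of other tissue content was not tested.

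Outside the prion locus and the chromosome 3 RNAs, the genes named for the largest fold changes included some with uneven levels within a genotype. Glp1r, the receptor of glucagon-like peptide 1, and Dnah8, an axonemal dynein gene, neighbour each other on chromosome 17 (30901867 to 30936510 and 30624354 to 30875264, GRCm38) and were high in the same 5 P301S libraries. In P301S normoxia Glp1r had 0.818, 1.03, 25.9, 23.2 and 2.96 CPM, and in P301S hypoxia 25.5, 25.2, 1.87, 21.6, 1.44 and 3.98 CPM in the order of the replicates, against 1.23 to 6.31 CPM in WT. Dnah8 had 12.6 and 13.7 CPM in replicates 3 and 4 of P301S normoxia, 10.5, 14.1 and 15.5 CPM in replicates 1, 2 and 4 of P301S hypoxia, 1.46 to 2.46 CPM in the other 6 P301S libraries and 1.57 to 3.05 CPM in WT. In 6 of 11 P301S libraries both genes thus lay within or below the WT range, and their log2 fold changes of 1.98 (SE 0.595, adjusted p = 0.0342) and 1.61 (SE 0.425, adjusted p = 0.0165) average over unlike libraries. Glo1, next to Dnah8, was not called (adjusted p = 0.07), nor was Glp1r in 10 of the fits that left out a library (adjusted p up to 0.0783). Without the choroid-poor libraries neither Glp1r nor Dnah8 was called (adjusted p = 0.184 and 0.126). Rec8, a meiotic cohesin subunit, fell by 1.84 (SE 0.563, adjusted p = 0.0366), with 0.171 to 2.14 CPM in P301S and 0.044 to 8.33 CPM in WT, and lost its call in 8 of the fits that left out a library (adjusted p up to 0.079). The background is mixed, and whether alleles of the parental strains differ between the genotypes was not tested.

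**Figure D5:**
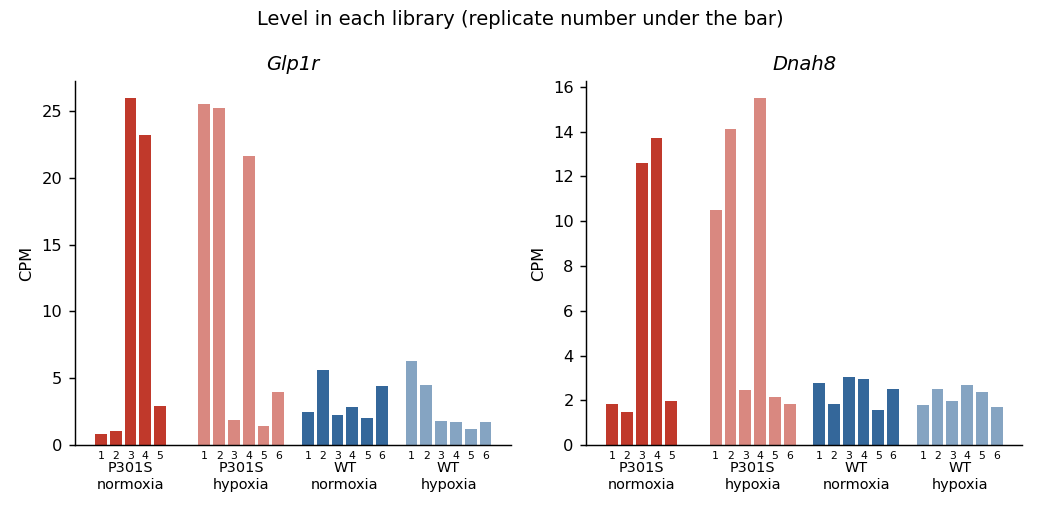
Level in CPM of Glp1r and Dnah8 in each library, P301S in red and WT in blue, hypoxia in the lighter shade, with the replicate number under each bar. Glp1r and Dnah8 are high in replicates 3 and 4 of P301S normoxia and 1, 2 and 4 of P301S hypoxia and near WT levels in the other 6 P301S libraries.

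The remaining genes with large changes differed more evenly. Nox1, a superoxide-generating oxidase, rose by 0.60 (SE 0.124, adjusted p = 0.00299), with 3.53, 4.61 and 6.36 CPM as its lowest, median and highest level in P301S and 2.07, 3.16 and 4.64 CPM in WT. Runx1, a transcription factor of blood cells and microglia, ran from 1.32 to 2.71 CPM in P301S (median 1.97) and from 0.923 to 1.48 CPM in WT (median 1.38), and rose by 0.59 (SE 0.114, adjusted p = 0.00163). The groups overlapped only in the lower part of the P301S range. Wnt16, a Wnt ligand, rose by 0.59 (adjusted p = 0.0118), Col11a1, a fibrillar collagen chain, by 0.62 (adjusted p = 0.021), Slc23a4, a nucleobase transporter, by 0.56 (adjusted p = 0.0188) and Thap6, a zinc finger protein, by 0.51 (adjusted p = 0.0164). Col11a1 was not called with the length and GC trend removed (adjusted p = 0.0859), nor was Thap6 without the choroid-poor libraries (adjusted p = 0.0808). Bex4, a brain-expressed X-linked gene, ran from 3.95 to 6.44 CPM in P301S (median 5.36) and from 5.82 to 13.3 CPM in WT (median 9.05), and fell by 0.68 (SE 0.136, adjusted p = 0.00237). Among RNA classes, 39 of 985 long intergenic RNAs rose and 8 fell, and 31 of 539 antisense RNAs rose and 1 fell. The rises were near the 4.95% of all tested genes that rose, and the falls were below the 7.28% that fell. Antisense counts are uncertain, since no strand setting was used in counting.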

How the data were processed

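Whole hippocampus RNA (RIN above 9, per the labels' protocols) was sequenced in 23 libraries from a stranded mRNA kit. Per the file headers, the authors deposited read-pair counts by gene, not normalized, from featureCounts 1.6.2 over gene bodies with introns, without a strand setting, on Ensembl 90 (GRCm38), from alignments named as duplicate-removed. The submitters' processing notes name HISAT2, mm10 and DESeq2 1.6.3. Reads over more than 1 gene are dropped by default. Of the tested genes 48.1% overlap another gene, 822 over more than 50% of their length. Symbols came from GENCODE M21 (52489 of 52636 genes), and genes without one took 0.0277% to 0.0356% of a library. Mitochondrial genes took 2.14% to 2.99% of counts. Libraries of a group correlated at 0.976 to 0.993, and no 2 of them agreed within sampling noise (lowest chi-square over its degrees of freedom, 5.03).

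Tests used edgeR 4.0.16 in R 4.3.3 (limma 3.58.1, DESeq2 1.42.0): filterByExpr (minimum count 10, removing 0.0539% to 0.0881% of counts), TMM (0.961 to 1.03) and robust quasi-likelihood fits of condition plus genotype, two-sided, with Benjamini-Hochberg adjustment over all 17788 genes and calls below 0.05. Separate fits used each condition's libraries, and a model with an interaction term tested the difference. The floor of 3 counts covers counting error only. The test was tried on simulated data first. Alternatives are named in the closing section. Genes named are Mapt, Prnp, Prn and Lamr1-ps1, up to 12 higher and 12 lower called genes of largest change (mean at least 1 CPM, no predicted name, same sign in both conditions), up to 6 further genes of lowest p, and up to 4 members of lowest p per described list. Others are said to be chosen after their values were seen. The comparison, the 55 gene lists and the tests were chosen with earlier results of these data known. Some results are not reported here.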

Additional observations from a re-analysis of the deposited data

Results flagged for a closer look

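Of 122 tests for a single library far from the rest of its group, run on the genes with the largest changes or the lowest p, 5 found one, where chance flags about 1 in 20 groups. Nox1 had 6.36 CPM in P301S normoxia replicate 2, where the other libraries of the group had 4.18 to 4.75 CPM. Uqcrc1 had 17.5 CPM in P301S hypoxia replicate 6, against 10.6 to 12.3 CPM in its group. Rpl12 had 70.5 CPM in P301S normoxia replicate 1, against 57.5 to 60.7 CPM. Kctd16 had 26.3 CPM in WT normoxia replicate 1, against 18.5 to 21.3 CPM, and Akr1a1 had 236 CPM in WT hypoxia replicate 2, against 205 to 216 CPM. All 5 genes kept their call in every fit that left out 1 library.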

How the results depend on the processing

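The count of genes called over both conditions moved by over 1.5 times under 1 alternative, the subtraction of a trend with gene length and GC content in each library (1000). It was 2169 with DESeq2's size factors, 2708 with DESeq2, 1566 without a filter on low counts, 2305 with at least 1 CPM in at least 5 libraries, 2195 without robust estimation, 2307 with the choroid plexus score as a term, 1482 without the 6 choroid-poor libraries, 2280 from the mean of the contrasts of 4 group means and 1996 without condition, and 1543 to 2582 when 1 library was left out. In normoxia alone the count of 360 became 1349 with DESeq2, 51 with the trend removed, 733 with the choroid covariate, 115 without choroid-poor libraries and 1054 from 4 group means, and lay between 9 (WT normoxia replicate 2 left out) and 1231 (WT normoxia replicate 1 left out), moved by each of the 11 libraries. In hypoxia alone the count of 150 became 908 with DESeq2, 17 with the trend removed, 85 with the choroid covariate, 21 without choroid-poor libraries and 343 from 4 group means, and ran from 11 (without P301S hypoxia replicate 3) to 537 (without P301S hypoxia replicate 6), moved by 11 of 12 libraries. The interaction count of 0 became 52 with DESeq2, 3 without a filter and 7 with the choroid covariate, and ran from 0 to 7 when 1 library was left out, with 1650 genes at an unadjusted p below 0.05. Removal of the trend reversed Cacnb2 (-0.0291) and Snhg14 (-0.0678), neither then called. Of 246 named genes, some of them chosen after their values were seen, 158 were called. Under every alternative that left no single library out, 83 of these are counted as keeping their call, the 2 reversed genes included. In every fit that left one out 123 kept it, and 66 lost it with the trend removed, not counting the 2 reversed genes. The causes were not tested. A covariate for sex was not run, since Xist, wholly under Tsix, had no counts and Ddx3y was at least 84.6 CPM in every library. No paired analysis was possible because replicates were numbered in accession order, which pairs no libraries.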

Other observations

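The other gene groups held few calls, some in a share close to that of all tested genes, of which 4.95% rose and 7.28% fell. Of 29 spliceosome and RNA-binding genes 4 fell and 1 rose: Snrpb, Snrpd2 and Snrpd1, Sm proteins of the spliceosome core, fell by 0.25, 0.26 and 0.25 (adjusted p = 0.00158, 0.00655 and 0.0263), and Mbnl2, a splicing regulator, rose by 0.15 (adjusted p = 0.0164). With the length and GC trend removed 4 fell and none rose, and without the choroid-poor libraries 2 fell. Of 16 circadian clock genes 1 rose and 3 fell, with Clock rising by 0.14 (adjusted p = 0.00905) and Cry1, a repressor of the clock, falling by 0.27 (adjusted p = 0.0312). Clock was not called with the trend removed, nor without the choroid-poor libraries. Of 29 orthologs of Alzheimer risk genes 2 rose and none fell, Cd2ap by 0.19 and Inpp5d by 0.20 (adjusted p = 0.0218 and 0.0345), and none was called with the trend removed. Of 23 matrix and perineuronal genes 4 rose and 1 fell, with Sparc, a matrix glycoprotein, falling by 0.22 (adjusted p = 0.0111). Of 22 genes of cholesterol synthesis 1 rose and 1 fell, and of 26 immediate early genes 2 fell, with medians of -0.088 in normoxia and 0.092 in hypoxia and an unadjusted interaction p below 0.05 in 12 of the 26.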
